A study of Homo sapiens with 12 samples.

Results

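The AP-1 and immediate early genes examined here are FOSL1, FOSL2, FOS, JUN, JUNB, JUND, EGR1, IER2, IER3 and PHLDA1. They were taken by gene symbol, and all 10 of them are among the 15798 genes listed and among the 10534 genes tested. The data are from HCT116, a human colorectal carcinoma cell line, treated for 24 h with either 100 nM trametinib, an inhibitor of the kinases MEK1 and MEK2, or the solvent DMSO (0 nM trametinib). From each treatment, 3 replicates, described by the submitters as biological, gave an input library of randomly fragmented cytoplasmic RNA and a library of ribosome footprints, the mRNA fragments that ribosomes shield from RNase I. Every dish of both treatments received cycloheximide, which halts elongating ribosomes, shortly before lysis. The groups hold a single cell line at a single dose and time. In bulk lysates, a lower level in every cell and a smaller number of expressing cells cannot be told apart.

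Immediate early genes are transcribed within minutes of a growth signal, without the need for new protein, and their mRNAs and proteins are mostly short-lived. ERK, the kinase downstream of MEK, phosphorylates ternary complex factors that sit with SRF on serum response elements, and also phosphorylates and stabilises several of the proteins made, among them FOS and FOSL1. FOS and JUN family proteins pair through leucine zippers into the transcription factor AP-1: FOS proteins bind DNA only with a partner, whereas JUN proteins can also pair with each other. In colorectal epithelium, AP-1 is known for its part in proliferation, migration and invasion.

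The sequences just before the transcription start of EGR1 and JUND are shown because they hold matches to elements that are known to respond to growth factor or cyclic AMP signals. They come from RefSeq (GRCh38.p14), which had an entry for 8 of the 10 genes. No entry was found for FOSL1 or IER3. Each line covers 100 bases, 5′ to 3′ on the gene's own strand. For EGR1, at chr5:138465349-138465448 on the plus strand, the capitals mark 2 serum response elements (CArG boxes), at -105 to -96 and -83 to -74 from the start. For JUND, at chr19:18281773-18281872 on the minus strand, they mark a cyclic AMP response element at -200 to -193.
EGR1: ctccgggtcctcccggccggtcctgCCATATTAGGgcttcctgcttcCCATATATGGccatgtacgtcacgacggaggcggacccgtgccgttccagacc
JUND: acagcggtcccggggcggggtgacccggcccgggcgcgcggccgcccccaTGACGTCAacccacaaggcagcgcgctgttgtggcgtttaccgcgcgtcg
Over the 250 bases before the start, searched on both strands, a CArG box was present in 1.14% of 27305 promoters and the element TGACGTCA in 1.77%. The TATA box TATAAA, found in 11.1% of promoters, was present before FOS at -33 to -28 and before JUNB at -31 to -26. The AP-1 site TGACTCA (4.16% of promoters), the ETS site CCGGAAGT (3.64%) and the EGR site GCGTGGGCG (0.71%) had no match in the windows of the 8 genes. A match is a description of these letters only.

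Total counts were 2276693 to 2845568 per input library and 10127477 to 19181588 per footprint library. The epithelial markers EPCAM, CDH1, KRT8, KRT18 and CLDN4 were all expressed, with lowest group means of 241, 102, 2402, 1364 and 153 CPM. CEACAM6, also looked for, was not among the genes listed. PTPRC of leukocytes and COL1A2 of fibroblasts had 2 counts each over all 12 libraries, PECAM1 of endothelium had 13, and COL1A1 lay at 6.73 to 11.3 CPM in the 4 groups. DMSO replicate 1 stood apart from the other DMSO replicates. Its deviations from the DMSO mean were shared between input and footprints (r = 0.803 over 8433 genes, against -0.118 to 0.342 in the other dishes), and it was the highest of the DMSO libraries for 7 of the 10 genes in each assay, compared with 34.9% of all tested genes in input and 40.6% in footprints. Values without it are given for those of the 10 genes whose results turn on it, and not for the genes of the related lists.

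To determine how MEK inhibition changed these genes, mRNA in input and ribosome footprints were compared between treatments. In input, 6 of the 10 genes fell (FOSL1, FOS, EGR1, IER2, IER3 and PHLDA1) and 2 rose (FOSL2 and JUNB) at an adjusted p under 0.05. Of all tested genes, 16.6% fell and 15.6% rose, 32.2% together. In footprints, 5 genes fell (FOSL1, FOS, EGR1, IER2 and IER3) and 1 rose (FOSL2), where 25.5% of all tested genes fell and 23.8% rose, 49.3% together. Over all tested genes, 2503 rose and 2690 fell in footprints, and with library totals as the scaling 3514 rose and 1913 fell, while the members called were again 1 higher and 5 lower. The median log2 change of the 10 genes was -1.08 in input and -1.20 in footprints, beside -0.003 and -0.014 over all tested genes. Levels are CPM, the counts of a gene relative to the library total after scaling within each assay, changes are log2 trametinib over DMSO from edgeR's quasi-likelihood test, and adjusted p-values are Benjamini-Hochberg values over all 10534 genes. Being relative, footprint CPM does not show a change of translation shared by all mRNAs.

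**Figure D1:**
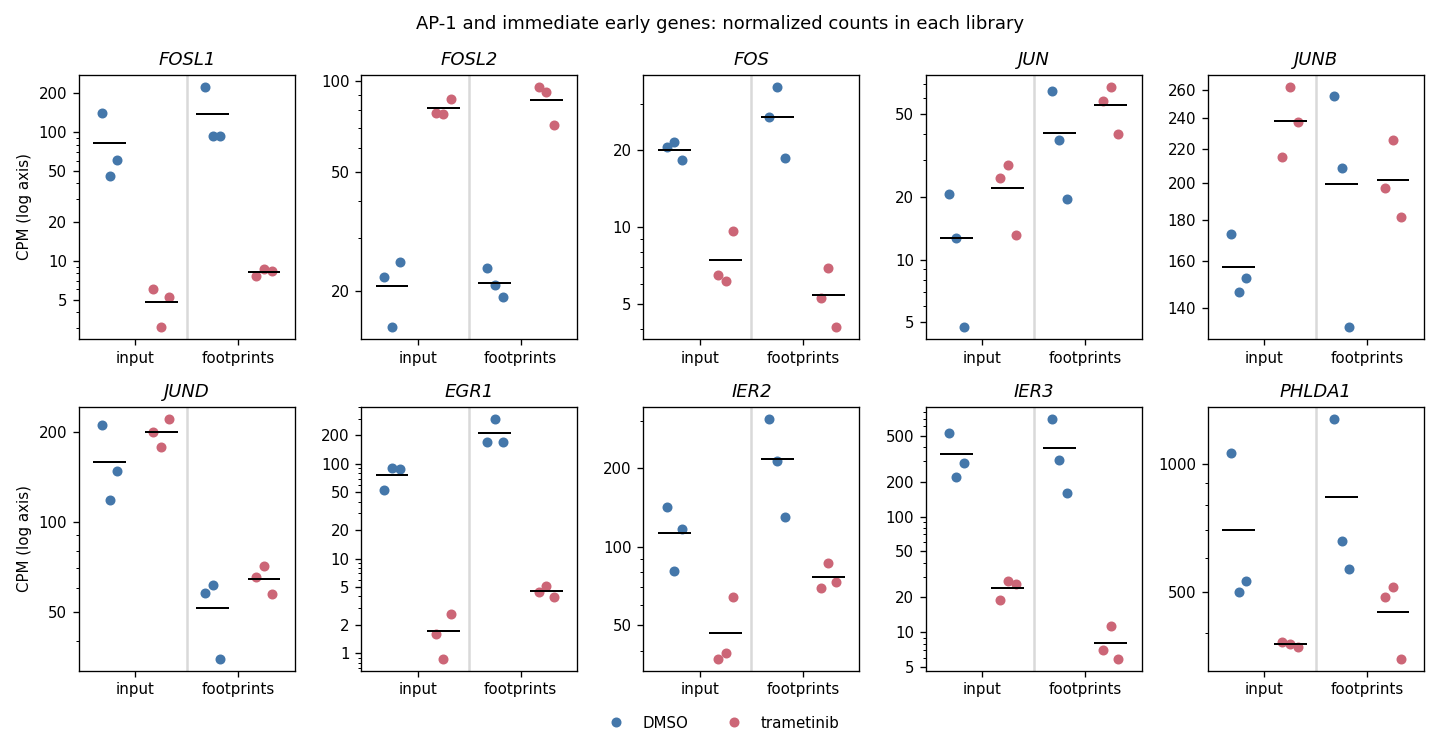
Normalized counts (CPM, log axis with its own range in each panel) of the 10 genes in the 12 libraries, with input left and footprints right of the grey line; points are libraries and bars are group means. The trametinib libraries of FOSL1, FOS, EGR1, IER2, IER3 and PHLDA1 lie below every DMSO library in both assays, and those of FOSL2 above.

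In 6 genes, every trametinib library lay below every DMSO library in input, and the same 6 genes did so in footprints, compared with 23.2% and 30.4% of all tested genes. In the opposite direction, FOSL2 and JUNB were separate in input and FOSL2 in footprints, compared with 23.4% and 29.3% of all tested genes.

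FOSL1 encodes FRA1, the FOS family member typical of cells with sustained ERK signalling. The gene lies on chromosome 11 (65892049 to 65900573, minus strand, GRCh38) and has 4 exons. Its input level was 140, 45.6 and 60.7 CPM in the DMSO replicates and 6.08, 3.08 and 5.28 CPM with trametinib. In footprints it measured 225, 92.8 and 93.6 CPM in DMSO and 7.60, 8.62 and 8.34 CPM with trametinib. DMSO replicate 1 was the highest library in both assays, yet the lowest DMSO library still lay well above every trametinib library. Mean input fell 17.1-fold (log2 -4.07, SE 0.53, edgeR adjusted p = 0.000761), and mean footprints fell 16.7-fold (log2 -4.07, SE 0.41, adjusted p = 0.000293). Without DMSO replicate 1 the log2 changes were -3.44 in input and -3.51 in footprints.

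FOSL2 encodes FRA2, the closest relative of FRA1, and it moved in the opposite direction. The gene lies on chromosome 2 (28392448 to 28417317, plus strand) and has 4 exons. Its input level was 22.2, 15.2 and 25.0 CPM in DMSO and 78.6, 77.8 and 87.0 CPM with trametinib. In footprints it measured 23.8, 21.0 and 19.1 CPM in DMSO and 95.8, 92.1 and 71.3 CPM with trametinib. All trametinib libraries lay above all DMSO libraries, and the values within each group were close to each other. The rise was 3.90-fold in input (log2 1.96, SE 0.20, edgeR adjusted p = 5.64e-06) and 4.06-fold in footprints (log2 2.02, SE 0.15, adjusted p = 8.78e-06).

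FOS, the classical serum-induced member, was expressed at a low level and fell further. It lies on chromosome 14 (75278826 to 75282230, plus strand) with 4 exons. Input was 20.4, 21.4 and 18.3 CPM in DMSO and 6.48, 6.16 and 9.67 CPM with trametinib, where it rested on 14 to 22 counts per library. Footprints were 26.7, 35.1 and 18.6 CPM in DMSO and 5.29, 6.91 and 4.09 CPM with trametinib. In both assays the trametinib libraries were all below the DMSO libraries. FOS fell 2.69-fold in input (log2 -1.43, SE 0.26, edgeR adjusted p = 0.000896) and 4.94-fold in footprints (log2 -2.29, SE 0.27, adjusted p = 0.000197).

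Because FOSL1 and FOSL2 moved apart, the share of each gene in the summed FOS family signal (FOS, FOSB, FOSL1 and FOSL2, in CPM per kilobase of coding length) was computed per library. In DMSO footprints, FOSL1 made up 86.1, 70.1 and 77.4% and FOSL2 made up 7.02, 12.2 and 12.2% of this sum. With trametinib, FOSL1 made up 8.91, 10.2 and 12.6% and FOSL2 made up 86.5, 84.1 and 83.0%. The order of both genes was thus exchanged in every replicate. The mean FOSL1 share was 77.9% ± 7.99 in DMSO and 10.6% ± 1.87 with trametinib (SD, n = 3), and that of FOSL2 was 10.5% ± 2.98 and 84.5% ± 1.79.

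Input gave the same exchange, with FOSL1 at 70.2% ± 9.97 in DMSO and 6.59% ± 2.01 with trametinib, and FOSL2 at 15.7% ± 5.39 and 86.1% ± 1.58 (SD, n = 3). FOS contributed 11.0% ± 5.28 of family footprints in DMSO and 4.34% ± 0.73 with trametinib, and FOSB, a further FOS family gene read from 6 to 26 footprint counts per library, contributed 0.66% ± 0.22 and 0.57% ± 0.10. The summed FOS family footprints per kilobase were 321, 163 and 149 CPM in DMSO and 105, 104 and 81.4 CPM with trametinib. All trametinib sums lay below all DMSO sums. In input the sums were 211, 88.2 and 114 CPM in DMSO and 87.7, 83.9 and 96.4 CPM with trametinib, and here the groups overlapped.

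**Figure D2:**
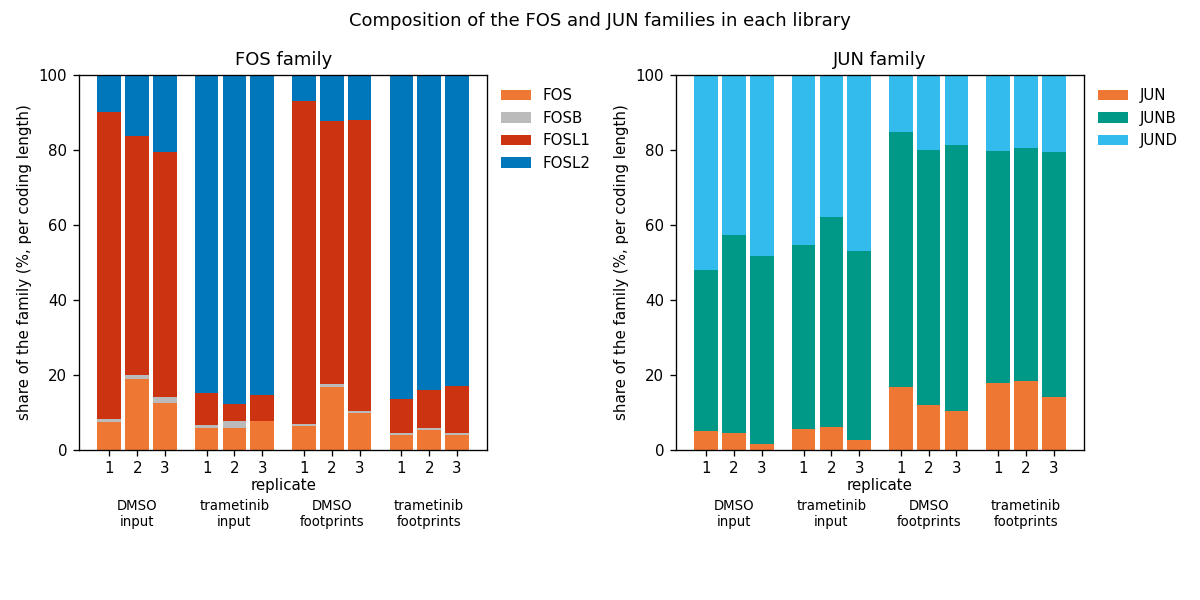
Share of each gene in the summed CPM per kilobase of coding length of the FOS family and the JUN family, as stacked bars of percent, 1 bar per library. In the FOS family, FOSL1 takes 70.1 to 86.1% of footprints in DMSO and 8.91 to 12.6% with trametinib, whereas JUNB keeps the highest share of JUN family footprints in all 6 footprint libraries.

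Of the JUN genes, which supply the partners of the FOS proteins, JUNB passed the test in input, and JUN and JUND in neither assay. JUN, the founding member, lies on chromosome 1 (58776845 to 58784048, minus strand) in 1 exon. Input was 20.8, 12.7 and 4.76 CPM in DMSO and 24.7, 28.6 and 13.2 CPM with trametinib. Footprints were 64.4, 37.7 and 19.5 CPM in DMSO and 57.6, 67.6 and 39.9 CPM with trametinib. The treatments overlapped in both assays, and the DMSO replicates spread widely.

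Neither difference of JUN passed the test (input log2 0.79, SE 0.44, edgeR adjusted p = 0.204; footprints log2 0.44, SE 0.43, adjusted p = 0.430). Without DMSO replicate 1, the input change was 1.32 (edgeR adjusted p = 0.0126) and the footprint change 0.99 (adjusted p = 0.0874). With the replicate number as a block, the input change was 0.85 (edgeR adjusted p = 0.0116) and the footprint change 0.56 (adjusted p = 0.113).

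JUNB, a JUN protein with weaker transactivation than JUN, lies on chromosome 19 (12791486 to 12793315, plus strand) in 1 exon. Input was 173, 147 and 153 CPM in DMSO and 215, 262 and 238 CPM with trametinib. Footprints were 256, 208 and 133 CPM in DMSO and 197, 226 and 181 CPM with trametinib. The input groups were separate, while the footprint groups overlapped fully.

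JUNB mRNA rose 1.51-fold in input (log2 0.60, SE 0.15, edgeR adjusted p = 0.00701), and without trametinib input replicate 2 the change was 0.52 with an adjusted p of 0.0542. Footprints differed by log2 0.02 (SE 0.22, adjusted p = 0.958), and this value ranged from -0.19 to 0.25 when single footprint libraries were left out.

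JUND, the JUN gene that is least dependent on growth signals, lies on chromosome 19 (18279694 to 18281622, minus strand) in 1 exon. Input was 210, 118 and 148 CPM in DMSO and 199, 177 and 221 CPM with trametinib. Footprints were 57.7, 61.3 and 34.8 CPM in DMSO and 65.1, 70.8 and 57.4 CPM with trametinib. The treatments overlapped in both assays.

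The change of JUND was 0.33 in each assay and did not pass the test (SE 0.20 and edgeR adjusted p = 0.219 in input, SE 0.20 and adjusted p = 0.201 in footprints). Without DMSO input replicate 1 the input change was 0.58 with an adjusted p of 0.00936. In the summed JUN family footprints per kilobase, JUNB made up 69.0% ± 1.84 in DMSO and 63.1% ± 1.87 with trametinib, JUND 18.0% ± 2.40 and 20.2% ± 0.62, and JUN 13.1% ± 3.36 and 16.7% ± 2.27 (SD, n = 3). In input, JUNB (48.6% ± 5.18 and 51.8% ± 3.78) and JUND (47.7% ± 4.78 and 43.4% ± 4.83) had near equal shares. The summed JUN family footprints per kilobase were 279 ± 92.4 CPM in DMSO and 307 ± 40.9 CPM with trametinib, a difference within the spread of the replicates. In input the sums were 388, 266 and 293 CPM in DMSO and 421, 449 and 453 CPM with trametinib. There, all trametinib sums lay above all DMSO sums.

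EGR1, a zinc-finger transcription factor and a standard reporter of ERK activity, showed the largest input decrease of the 10 genes. It lies on chromosome 5 (138465479 to 138469303, plus strand) and has 2 exons, just downstream of the CArG boxes printed above. Input was 52.9, 90.9 and 87.7 CPM in DMSO (145, 251 and 221 counts) and 1.62, 0.88 and 2.64 CPM with trametinib, from 4, 2 and 6 counts. Footprints were 172, 300 and 170 CPM in DMSO and 4.41, 5.20 and 3.94 CPM with trametinib, from 52 to 90 counts. Every DMSO library lay far above every trametinib library. EGR1 fell 45.1-fold in input (log2 -5.45, SE 0.35, edgeR adjusted p = 6.32e-08) and 47.3-fold in footprints (log2 -5.56, SE 0.28, adjusted p = 1.64e-06). DMSO replicate 1 was not its highest DMSO library in either assay.

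IER2, a small nuclear protein that modulates transcription, lies on chromosome 19 (13150411 to 13154911, plus strand) with 2 exons. Input was 142, 80.4 and 117 CPM in DMSO and 37.3, 39.1 and 64.2 CPM with trametinib. Footprints were 307, 211 and 130 CPM in DMSO and 69.3, 86.2 and 73.2 CPM with trametinib. The groups were separate in both assays, with the smallest gap between DMSO replicate 2 and trametinib replicate 3 in input. IER2 fell 2.41-fold in input (log2 -1.27, SE 0.25, edgeR adjusted p = 0.00185) and 2.84-fold in footprints (log2 -1.50, SE 0.29, adjusted p = 0.00403).

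IER3, a stress- and growth factor-induced regulator of cell survival, lies on chromosome 6 (30743199 to 30744548, minus strand) with 2 exons. Input was 525, 218 and 289 CPM in DMSO and 19.1, 27.7 and 25.9 CPM with trametinib. Footprints were 700, 306 and 159 CPM in DMSO and 7.06, 11.3 and 5.91 CPM with trametinib. In DMSO its footprints were the most variable of the 10 genes (coefficient of variation 72.0%), and the trametinib libraries still lay far below. IER3 fell 14.2-fold in input (log2 -3.83, SE 0.34, edgeR adjusted p = 2.84e-05) and 48.1-fold in footprints (log2 -5.59, SE 0.66, adjusted p = 0.000781). Without DMSO footprint replicate 1, the footprint change was -4.84.

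PHLDA1, a pleckstrin homology-like domain protein linked to apoptosis and growth factor signalling, lies on chromosome 12 (76025447 to 76031776, minus strand) with 2 exons. Input was 1061, 501 and 531 CPM in DMSO and 380, 377 and 370 CPM with trametinib. Footprints were 1279, 658 and 566 CPM in DMSO and 486, 513 and 347 CPM with trametinib. The groups were separate in both assays, but DMSO replicate 1 lay far above the other DMSO libraries.

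PHLDA1 input fell by 0.89 on the log2 scale (SE 0.26, edgeR adjusted p = 0.0234). The equal footprint change of -0.89 (SE 0.32, adjusted p = 0.0511) missed the threshold, and with the replicate number as a block it passed (-0.82, adjusted p = 0.0132). Without DMSO replicate 1 the change was -0.46 in input (adjusted p = 0.0107) and -0.44 in footprints (adjusted p = 0.0201). The input call was lost without any single trametinib input library (adjusted p = 0.0670, 0.0733 and 0.0733 without replicate 1, 2 and 3), and the footprint change also passed without DMSO footprint replicate 2 (-1.03, adjusted p = 0.0489) or 3 (-1.10, adjusted p = 0.0182).

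**Figure D3:**
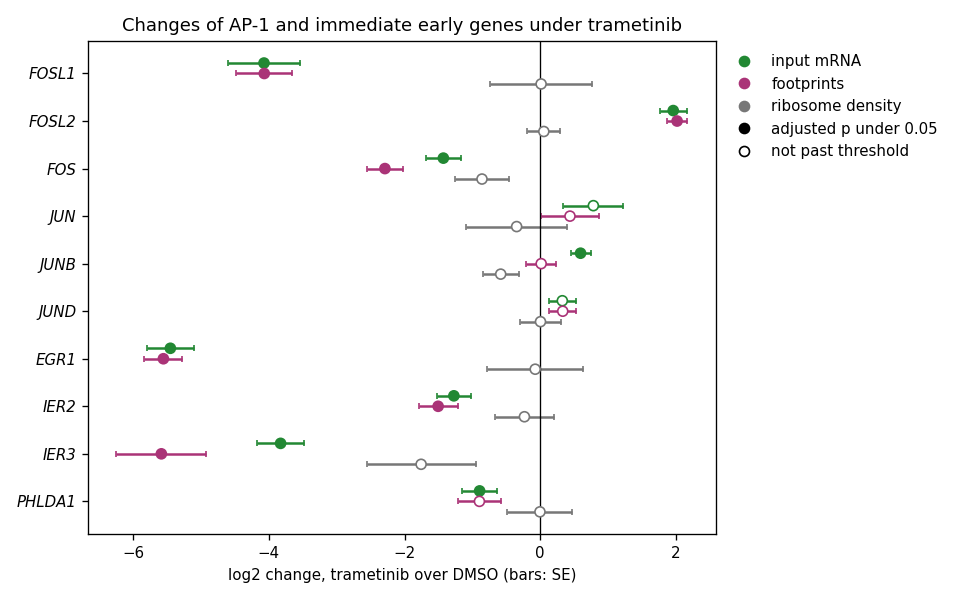
Log2 change (trametinib over DMSO) with SE for input mRNA, footprints and ribosome density of the 10 genes; filled points passed an adjusted p under 0.05 in edgeR's quasi-likelihood test. Input and footprints lie near each other for FOSL1, FOSL2 and EGR1, and no density value is filled.

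Per kilobase of coding length, PHLDA1 (693 ± 322 CPM) and IER3 (670 ± 482 CPM) had the highest footprint levels in DMSO, followed by IER2 (323 ± 133 CPM), JUNB (191 ± 59.6 CPM), FOSL1 (168 ± 93.2 CPM) and EGR1 (131 ± 45.7 CPM). JUND, JUN, FOS and FOSL2 were lower, at 49.3 ± 13.8, 38.3 ± 21.3, 20.9 ± 6.43 and 20.2 ± 2.24 CPM (SD, n = 3). Of the neighbours in this order, EGR1 and JUND had ranges that did not overlap, and all other neighbours overlapped.

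With trametinib the order was PHLDA1 (373 ± 73.8 CPM), JUNB (193 ± 21.8 CPM), IER2 (114 ± 13.3 CPM), FOSL2 (81.8 ± 12.5 CPM), JUND (61.9 ± 6.45 CPM), JUN (52.0 ± 13.2 CPM), IER3 (13.9 ± 4.85 CPM), FOSL1 (10.1 ± 0.65 CPM), FOS (4.23 ± 1.10 CPM) and EGR1 (2.77 ± 0.39 CPM). FOSL2 thus went from the lowest to the fourth rank of footprints per kilobase, while FOSL1 and EGR1 dropped to the eighth and the last rank. Neighbouring ranges overlapped between FOSL2 and JUND, JUND and JUN, IER3 and FOSL1, and FOS and EGR1, and were separate elsewhere.

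Next, ribosome density, the footprint CPM of a dish divided by its input CPM, was compared to see whether ribosome occupancy of these mRNAs changed beyond their abundance. Each assay was scaled to itself, so that density is relative to the average gene, and a change of translation shared by all mRNAs does not appear in it. At an adjusted p under 0.05, 0 of the 10 genes changed, where 1.04% of all tested genes fell and 0.0475% rose, 1.09% together. These were 110 and 5 genes, and 81 and 35 with library totals. At an unadjusted p under 0.05, 2 of the 10 genes (FOS and JUNB) passed, compared with 8.13% of all tested genes. Limma-trend and DESeq2, likewise without pairing input and footprints of a dish, also called 0 of the 10. The fit with the dish as a block called 1 of them, IER3, as described below. Of all 10534 tested genes, that fit called 18 higher and 149 lower.

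Both genes had lower density with trametinib. FOS density was 1.31, 1.64 and 1.02 in DMSO and 0.82, 1.12 and 0.42 with trametinib (log2 -0.86, SE 0.40, unadjusted p = 0.0474, edgeR adjusted p = 0.608). JUNB density was 1.48, 1.42 and 0.87 in DMSO and 0.92, 0.86 and 0.76 with trametinib (log2 -0.58, SE 0.27, unadjusted p = 0.0459, adjusted p = 0.608). In each case the highest trametinib dish reached into the range of the DMSO dishes.

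IER3 was the gene with the largest difference in density. It measured 1.33, 1.40 and 0.55 in DMSO and 0.37, 0.41 and 0.23 with trametinib, so that every trametinib dish lay below every DMSO dish. Non-overlap of this kind occurred in 9.35% of the 10511 genes with a density in every dish, and in IER3 alone among the 10 genes. The opposite separation occurred in 7.48% of those genes and in 0 of the 10. The change was -1.76 (SE 0.81, edgeR adjusted p = 0.643). With the dish as a block, it was -1.62 (SE 0.35, adjusted p = 0.0311). That fit takes input and footprints of the same replicate number as a single lysate, which the labels do not state. Without DMSO replicate 1 in both assays and without the block, the IER3 change was -1.44 (adjusted p = 0.261). Leaving that replicate out of input alone gave -2.20, and out of footprints alone -1.01.

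The density changes of the remaining genes were small beside their errors in the main fit, which does not pair input and footprints of a dish. FOSL2 (0.05, SE 0.25) and JUND (0.01, SE 0.31) had the smallest SE among them, and FOSL1 (0.02, SE 0.76) and EGR1 (-0.07, SE 0.71) had the largest apart from JUN (-0.35, SE 0.75). IER2 was at -0.23 (SE 0.43) and PHLDA1 at -0.00 (SE 0.48). Without DMSO replicate 1 in both assays, the SE was 0.32 for FOSL1 and 0.39 for EGR1, and the changes were -0.06 and 0.01. With the dish as a block, FOSL1 was at -0.01 (SE 0.34), JUN at -0.36 (SE 0.23), PHLDA1 at -0.02 (SE 0.17) and EGR1 at -0.06 (SE 0.58). None of the remaining genes passed in that fit.

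The level of density differed widely within the family. JUN lay at 3.39 ± 0.62 in DMSO (the 97.5th percentile of tested genes) and at 2.57 ± 0.39 with trametinib (the 93.6th percentile), and EGR1 at 2.83 ± 0.77 and 3.38 ± 2.28 (the 95.6th and 97.0th percentile). JUND lay at 0.34 ± 0.15 and 0.33 ± 0.07 (the 7.94th and 8.24th percentile; SD, n = 3 each). All JUN dishes lay above all JUND dishes. The EGR1 densities with trametinib, at 2.72, 5.91 and 1.49, rested on only 4, 2 and 6 input counts. The JUN density in DMSO replicate 3, at 4.10, rested on 12. IER3 moved from the 55.7th percentile in DMSO to the 8.55th with trametinib.

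**Figure D4:**
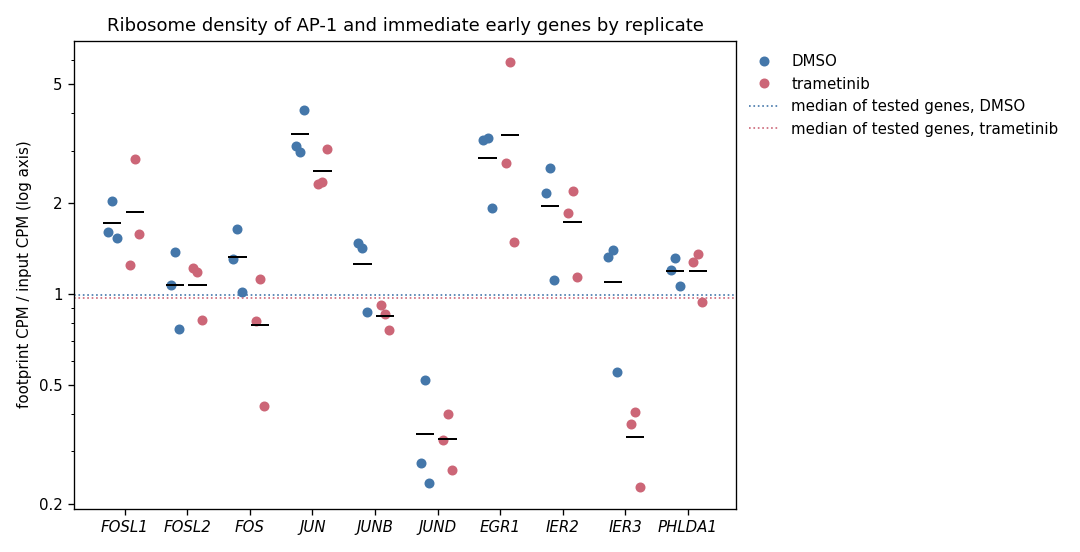
Ribosome density (footprint CPM over input CPM of the same dish, log axis) of the 10 genes; points are dishes, bars are group means and dotted lines are the medians of all tested genes. JUN has group means of 3.39 and 2.57 and JUND of 0.34 and 0.33, and IER3 is the gene whose trametinib dishes, at 0.23 to 0.41, all lie below the DMSO dishes.

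The other basic leucine zipper genes that can pair with FOS or JUN proteins, or with each other, mostly went down where they changed. Of 19 tested, 0 rose and 5 fell in input (median log2 change -0.43), and 1 rose and 8 fell in footprints (median -0.52). Together these are near or below the 32.2% and 49.3% called among all tested genes. By direction, 16.6% of all tested genes fell in input and 25.5% in footprints, and 15.6% and 23.8% rose. The largest decrease in each assay was that of DDIT3, the stress factor CHOP, with -4.02 in input (SE 0.64, edgeR adjusted p = 0.00367) and -5.13 in footprints (SE 0.63, adjusted p = 0.000760). ATF4, the central factor of the integrated stress response, changed by -1.47 in input (SE 0.20, edgeR adjusted p = 0.000114) and by -3.24 in footprints (SE 0.53, adjusted p = 0.00302). MAFF, a small MAF protein, changed by -1.89 in input (SE 0.39, adjusted p = 0.00214) and by -2.09 in footprints (SE 0.43, adjusted p = 0.00567). ATF5 changed by -2.92 in footprints (SE 0.96, adjusted p = 0.0439). The DMSO replicates spread widely for DDIT3 input (128 ± 92.6 CPM), ATF4 footprints (295 ± 198 CPM) and ATF5 footprints (11.62 ± 13.55 CPM; SD, n = 3). ATF2, a JUN partner, was the 1 gene that rose in footprints, named after its value was seen.

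Among 30 other immediate early genes tested, the directions were mixed. In input 5 rose and 5 fell (median -0.11), and in footprints 3 rose and 9 fell (median -0.20). The 10 genes called in input are near the 32.2% called among all tested genes, and the 12 in footprints lie below the 49.3% called there. LIF, a cytokine of the interleukin-6 family, fell most, with -3.93 in input (SE 0.40, edgeR adjusted p = 4.79e-06) and -5.99 in footprints (SE 0.45, adjusted p = 9.11e-06), to a mean of 0.15 CPM. PHLDA2, a relative of PHLDA1, changed by -2.87 in input (SE 0.30, adjusted p = 1.22e-05) and by -3.05 in footprints (SE 0.16, adjusted p = 8.51e-07), and the stress-responsive kinase PLK3 by -2.77 (SE 0.29, adjusted p = 9.79e-06) and -3.48 (SE 0.25, adjusted p = 1.05e-05). The 5 genes that rose in input, named after their values were seen, were NR4A1, NR4A2, IER5L, BTG2 and ID3.

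The factors and kinases that act on the transcription of these genes did not pass the test for the most part. Of 19 tested, 1 rose and 2 fell in input (median -0.07), and 3 rose and 2 fell in footprints (median 0.05), below the 32.2% and 49.3% called among all tested genes. RPS6KA2, an RSK kinase activated by ERK, rose by 1.52 in input (SE 0.23, edgeR adjusted p = 0.000243) and by 1.72 in footprints (SE 0.20, adjusted p = 0.000150). ELK3, a ternary complex factor of the serum response element, changed by -1.31 in input (SE 0.21, adjusted p = 0.000384) and by -1.03 in footprints (SE 0.20, adjusted p = 0.00246). MAPK8, which encodes the JUN kinase JNK1, fell by 0.57 in input (SE 0.18, adjusted p = 0.0280), and MAPK3, which encodes ERK1, rose by 0.66 in footprints (SE 0.12, adjusted p = 0.00188). The remaining 16 genes in input and 14 in footprints did not pass.

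Of 15 tested factors of mRNA decay and protein turnover, 1 rose and 4 fell in input (median -0.22), and 1 rose and 3 fell in footprints (median -0.06). The 5 of 15 called in input are near the 32.2% of all tested genes, and the 4 in footprints are below the 49.3%. The largest decrease was that of TRIB3, a pseudokinase scaffold for ubiquitin ligases and a target of ATF4 and CHOP, with -4.45 in input (SE 0.67, edgeR adjusted p = 0.00344) and -4.56 in footprints (SE 0.90, adjusted p = 0.00666). Its DMSO replicates spread widely, with 265 ± 214 CPM in input and 158 ± 161 CPM in footprints (mean and SD). HNRNPD, the AU-rich element binding protein AUF1, changed by -1.49 (SE 0.28, adjusted p = 0.00154) and -1.19 (SE 0.18, adjusted p = 0.000591). ZFP36L2, which promotes decay of AU-rich mRNAs, changed by 0.88 in input (SE 0.31, adjusted p = 0.0453). ELAVL1, which stabilises them, changed by -0.80 in input (SE 0.17, adjusted p = 0.00285) and by -0.62 in footprints (SE 0.13, adjusted p = 0.00431).

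Known AP-1 target genes moved in both directions, more of them down. Of 27 tested, 5 rose and 12 fell in input (median -1.11), and 6 rose and 14 fell in footprints (median -0.81), above the 32.2% and 49.3% called among all tested genes. Among all tested genes, 16.6% fell and 15.6% rose in input, and 25.5% fell and 23.8% rose in footprints. The list was chosen with earlier results of these data known, so no conclusion is drawn from its excess of calls. HBEGF, an EGFR ligand, changed by -2.68 in input (SE 0.49, edgeR adjusted p = 0.00117) and by -3.28 in footprints (SE 0.71, adjusted p = 0.00905). In DMSO it measured 15.8 ± 8.98 CPM in input and 12.3 ± 10.4 CPM in footprints (mean and SD), a wide spread. MMP7, the matrilysin protease of intestinal epithelium, went the opposite way, with a mean of 3.88 CPM in DMSO and 37.1 CPM with trametinib in input (log2 3.24, SE 0.33, adjusted p = 4.58e-06) and a footprint change of 4.19 (SE 0.28, adjusted p = 9.15e-06). In ribosome density, 0 genes of these 5 lists passed in the main fit. The lists were not examined with the dish as a block.

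**Figure D5:**
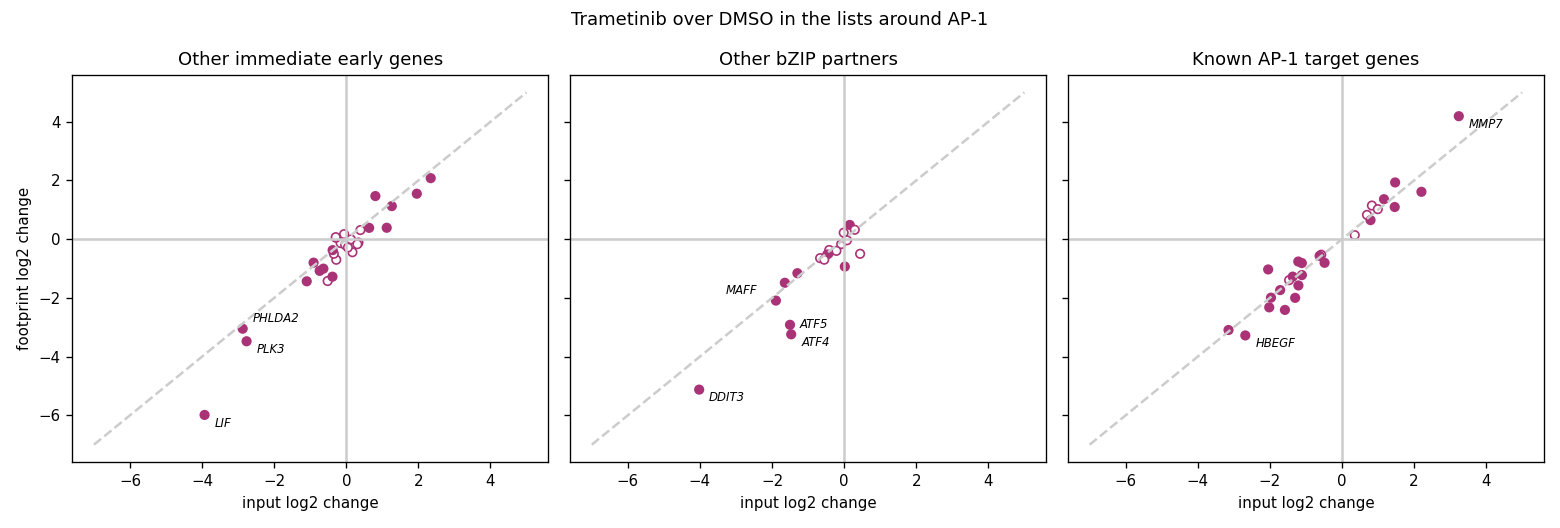
Log2 change (trametinib over DMSO) of footprints against input for 30 other immediate early genes, 19 other basic leucine zipper partners and 27 known AP-1 target genes; each point is a gene, filled where it passed in either assay at an adjusted p under 0.05, and the dashed line marks equal change. LIF and DDIT3 lie at the lower left of their panels, below the line, and MMP7 at the upper right.

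Finally, the genes with the most similar pattern over the 12 libraries were sought among 7157 genes with a mean of at least 50 counts in each assay, by Pearson's r of log2 CPM centred within each assay. Closest to FOSL1 were POLR3E (0.998), NDE1 (0.991) and MARS1 (0.990), and closest to FOSL2 were ADAR (0.995), LGALS3BP (0.994) and GPRC5C (0.994). EGR1 was nearest to the histone genes H2AC12 (0.997), H3C1 (0.995) and H3C12 (0.995), whose reads may be split among near-identical copies, and IER3 to RBM22 (0.995), H2AW (0.991) and CHAC1 (0.990). PHLDA1 was nearest to FHL2 (0.986), DUSP5 (0.982) and PHGDH (0.981), IER2 to SFT2D1 (0.982), NECAP1 (0.980) and NELFE (0.979), and FOS to NPM3 (0.977), URB1 (0.969) and SPRED2 (0.966).

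The JUN genes had looser neighbours, RBM5 (0.956), MBTPS2 (0.934) and NHS (0.921) for JUN, ANKZF1 (0.933), CDC42BPG (0.925) and TNKS1BP1 (0.922) for JUNB, and TRIO (0.938), ZNF687 (0.932) and DOCK6 (0.931) for JUND. All genes share the same 12 libraries, their depth and the treatment groups, so that any genes with a large treatment difference correlate.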

How the data were processed

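Ribo-seq was analysed in HCT116 cells treated with DMSO or trametinib, with 3 input and 3 footprint libraries each. Per the methods of the study, the authors removed adapters, discarded rRNA and tRNA reads, mapped the rest to basic Gencode V38 transcripts with Bowtie 1.2.2, and counted reads of 25 to 35 nt within the coding regions of a gene symbol. The deposited counts per gene and library are raw. The deposited signal columns, counts divided by DESeq2 1.46.0 size factors, were not used for any result. The authors' log2 fold changes and adjusted p-value columns, which compare the treatments, were not used, and 0 further per-sample columns were left out.

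Genes with a mean of at least 10 counts over the 6 input libraries were tested with edgeR 4.0.16 (R 4.3.3, TMM within each assay, robust quasi-likelihood test, SE as |log2 change| over the square root of F), and ribosome density as the interaction of assay and treatment. The fits were tested on simulated counts. Coding length is the union of coding exons of basic Gencode v44 transcripts (GRCh38), used in place of a protein table. Alternatives were DESeq2 1.42.0, limma 3.58.1 (prior count 2), other scalings and filters, a stricter threshold, a replicate block and leaving out libraries. The 10 genes and the lists of related genes were chosen with earlier results of these data known. Named from each list were up to 3 called genes of the largest absolute log2 change per comparison, and per member the 3 genes of highest r. A gene that this rule would name among the AP-1 targets is not reported here. All tests were two-sided. Of the epithelial markers looked for, CEACAM6 was not among the genes listed.

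In the study's methods, input RNA was set aside from the lysate that was then digested for footprints. The labels do not state that libraries of the same replicate number share a lysate, and this was assumed here. Deviations from group means correlated at r = 0.803, 0.186 and 0.342 in the DMSO dishes and at 0.150, 0.0715 and -0.118 in the trametinib dishes. Between treatments, samples of the same replicate number correlated at 0.0711, 0.0574 and 0.323 in input and at 0.109, 0.132 and 0.289 in footprints. These values do not settle whether the number pairs the treatments, and the labels do not state it. The main tests used no such pairing, and the replicate block was an alternative.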

Additional observations from a re-analysis of the deposited data

How the results depend on the processing

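Of the member changes recomputed under the alternatives, 441 of 500 had the same sign and the same call. FOSL1, FOSL2, FOS, EGR1, IER2 and IER3 kept their input and footprint calls in every alternative. At an adjusted p under 0.01, the genes called were 935 higher and 1124 lower in input, 1662 higher in footprints and 1 higher in density. Density counts of higher genes were 35 with library totals, 10 without a filter, 35 with DESeq2's likelihood ratio test and 15 without DMSO replicate 1 in both assays, an alternative added after seeing the data. With library totals, the median log2 change of all genes was 0.161 in footprints and 0.176 in density. The main fits had -0.014 and -0.006. Library totals called 3514 higher and 1913 lower genes in footprints and 35 and 81 in density. Leaving out single libraries gave 1063 to 1752 higher and 1210 to 1911 lower genes in input, 1849 to 3148 and 1964 to 3234 in footprints and 1 to 12 and 78 to 134 in density. The members called were then 1 to 4 higher and 5 to 6 lower in input, and 1 higher and 5 to 6 lower in footprints. PHLDA1 input was not called without a filter (-0.92, adjusted p = 0.0602) or at 0.01. PHLDA1 footprints were called with median-of-ratios size factors (adjusted p = 0.0481), a filter on 10 counts in 3 or more input libraries (0.0491), DESeq2 (0.00418), limma-trend (0.0416) and the replicate block (0.0132).

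The replicate block, for which a pairing of the treatments by number is not settled, gave 9 higher density genes. It called PHLDA1 in footprints (-0.82) and JUN in input (0.85), and changed no other member call. The dish as a block gave 18 higher and 149 lower density genes and 1 lower member, IER3 (-1.62), and changed no other member call. Near-zero density changes turned sign: PHLDA1 at 0.0022 with median-of-ratios size factors, 0.1736 with library totals, 0.0073 without a filter and 0.0021 with DESeq2, EGR1 at 0.1143 with library totals, FOSL1 at -0.1724 with limma-trend and -0.0143 with the dish block, and JUND at -0.0021 with the replicate block. Without DMSO replicate 1 in both assays, FOSL1 was at -0.0569, JUND at -0.1392, EGR1 at 0.0143 and PHLDA1 at 0.0159. Over the fits without a single library, density ranged from -0.6145 to 0.5755 for FOSL1, -0.0966 to 0.2393 for FOSL2, -0.8848 to 0.1856 for JUN, -0.2494 to 0.179 for JUND, -0.3733 to 0.3605 for EGR1, -0.4803 to 0.1187 for IER2, -0.4363 to 0.4501 for PHLDA1, -2.195 to -1.006 for IER3, -0.7892 to -0.3509 for JUNB and -1.061 to -0.612 for FOS, and JUNB footprints from -0.1925 to 0.2486. The FOSL1 share of trametinib footprints was 8.27% without division by coding length. The cause of these differences was not tested. FOSL1 and EGR1 rest on 34 and 12 input counts over the trametinib libraries.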
